A study of Gallus gallus with 15 samples.

Results

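The SLC25 genes encode the mitochondrial carrier family. All rows of the read-count table whose symbol begins with SLC25A and a digit were taken, by symbol alone, which gave 38 of 24154 gene rows. Of these, 37 passed the default expression filter of edgeR and were tested. The member that did not pass was SLC25A40, a glutathione carrier in mammals. It had 0 reads in the controls and 4 reads in 3 metformin libraries, and a count of 0 there allows up to 0.0264 CPM (3 reads over the 5 control libraries, counting error only). CPM is the read count divided by the TMM-scaled library size, times 1e6. Transcript lengths were not used here, so levels are compared between libraries and not between genes.

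RNA came from the liver of hens kept to breed broilers, sampled at 65 weeks of age. The control group was 5 libraries from hens that ate no metformin (0 mg/kg), and the metformin group was 10 libraries from hens that ate 75 mg/kg of body weight. Both diets ran for 40 weeks from an age of 25 weeks, with 45 hens in each treatment group, and the labels name no genotype or other agent. Whether different libraries are different hens is not stated, so a p-value reflects only the spread among these samples, which may be technical.

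Mitochondrial carriers sit mostly in the inner membrane and exchange metabolites, nucleotides and cofactors between the matrix and the cytosol. ADP/ATP and phosphate carriers serve oxidative phosphorylation, and the aspartate/glutamate and oxoglutarate carriers move reducing equivalents in the malate-aspartate shuttle. The citrate carrier delivers the carbon for fatty acid synthesis in the cytosol, which in birds takes place mainly in the liver. Metformin lowers blood glucose in mammals, and the respiratory chain is among its proposed targets there.

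The libraries were unequal, which bears on every value below. Reads in genes numbered 21435678 to 26494240 in controls and 8023809 to 41041301 with metformin. Libraries were divided where neighbours differed by over 5 percentage points in the share of reads in no gene. The middle set had 27.8% to 36.3% in the 5 controls and 36.98% to 43.5% in metformin 1, 3 and 4. Metformin 2 and 5 had 17.5% and 14.6%, and metformin 6 to 10 had 51.5% to 55.1%. The sets without controls cannot be told apart from the diet within them. Adding the set to the fit gives the value called set-adjusted, whose metformin term compares the 5 controls with metformin 1, 3 and 4. These metformin libraries all lay above every control in the share of reads in no gene. The set-adjusted value, and the middle set alone, therefore do not separate the diet from that share.

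Of the 37 SLC25 genes tested, 4 rose and 4 fell with metformin by edgeR's quasi-likelihood test at an adjusted p under 0.05 over all 14432 genes. SLC25A46, SLC25A24, SLC25A4 and SLC25A13 rose, and SLC25A25, SLC25A33, SLC25A1 and SLC25A22 fell. The called share was 21.6% of the members against 18.2% of all genes. By direction, 10.8% of members rose against 12.5% of all genes, and 10.8% fell against 5.73%. The family's called share was therefore near that of all genes. The median log2 fold change was -0.10 over the members and 0.03 over all genes. In no member did the metformin libraries lie all above or all below the controls, which was the case in 0.651% and 1.05% of all genes.

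Set-adjusted, 0 of the 37 genes passed with edgeR, as against 0.0346% of all genes. In a fit of the middle set alone 0 members passed too, against 0.00734% of all genes. At an unadjusted p under 0.05 there were 6 members (16.2%) in each of these fits, against 11.6% of all genes set-adjusted and 10.2% in the middle set alone. Of the 8 called genes, set-adjusted, 7 kept their sign and 3 kept at least 50% of their log2 fold change, namely SLC25A33, SLC25A25 and SLC25A22. Over all 2632 called genes these shares were 83.1% and 29.7%. Calls also changed when 1 library was left out. Without control 2 or without control 5, 0 members were called in either direction by edgeR. The loss of calls was that of all genes, of which 0.041% and 0% were called in those fits. At an unadjusted p under 0.05 there were 12 of 37 members in each of them, and all genes were not counted there. Over all libraries 13 of 37 members had such a p, against 5658 of all 14432 genes. DESeq2 called 6 members higher and 5 lower over all libraries (29.7%), the same share as of all genes (29.7%).

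**Figure D1:**
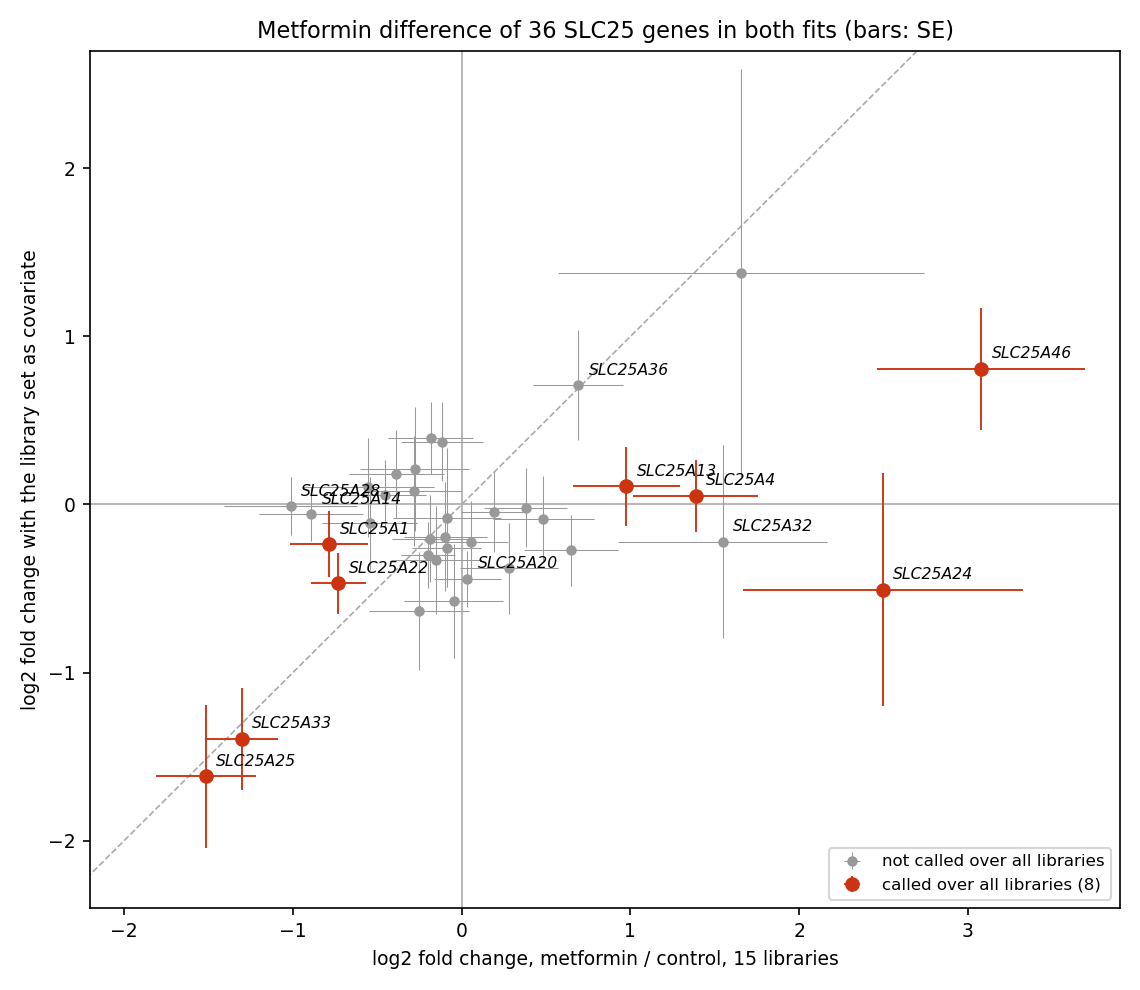
Log2 fold change of metformin against control for 36 SLC25 genes over 15 libraries (horizontal axis) and with the library set as covariate (vertical axis), with bars of 1 SE and a dashed line of equality. SLC25A33 and SLC25A25 lie near the line, while SLC25A46, SLC25A24, SLC25A4 and SLC25A13 lie well below it.

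Of the pyrimidine nucleotide carriers 1 fell and the other did not pass. SLC25A33 and SLC25A36 both carry pyrimidine nucleotides across the inner membrane in mammals. SLC25A33 had 12.6, 29.02, 36.0, 19.2 and 36.2 CPM in controls 1 to 5. With metformin it ranged from 8.26 to 13.0 CPM with a median of 10.9. In 8 of 10 metformin libraries it lay below every control, and the remaining ones lay just above control 1. Its mean fell from 26.6 ± 10.5 CPM (SD, n = 5) to 10.8 ± 1.87 CPM (SD, n = 10), giving a log2 fold change of -1.30 ± 0.22 (SE, adjusted p = 0.0180 by edgeR).

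The level of SLC25A33 was close among the 3 metformin sets. The means were 10.1 CPM in metformin 1, 3 and 4, 12.5 CPM in metformin 2 and 5, and 10.5 CPM in metformin 6 to 10. The set-adjusted value was -1.39 ± 0.30 (unadjusted p = 0.000269, adjusted p = 0.0997 by edgeR). When 1 library was left out, it did not pass in 14 of 15 such fits (-1.26 at the smallest, adjusted p up to 0.290). The exception was the fit without control 1, the lowest control (-1.58, adjusted p = 0.00289). Over all libraries the call was lost without control 2 (-1.28, adjusted p = 0.0556) and without control 5 (-1.17, adjusted p = 0.0632).

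SLC25A36 had 4.39, 4.74, 4.16, 2.99 and 5.31 CPM in the controls. The metformin libraries ranged from 3.23 to 10.2 CPM with a median of 7.69, and 8 of 10 lay above every control. Its log2 fold change of 0.69 ± 0.27 did not pass (adjusted p = 0.0719 by edgeR), and DESeq2 gave 0.73 (adjusted p = 0.0219). It passed without metformin 4 or without metformin 7 (adjusted p = 0.0499 and 0.0478 by edgeR). The set-adjusted value was 0.71 (adjusted p = 0.417 by edgeR).

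Read ratios of related carriers within a library do not depend on how libraries are scaled. Of 7 pairs with both genes past the filter, 3 differed between the diets by an exact two-sided permutation test over all 3003 splits, adjusted over the 7 pairs. The log2 ratio of SLC25A33 to SLC25A36 reads was 1.52, 2.61, 3.11, 2.67 and 2.76 in controls 1 to 5. With metformin it was 0.03, 0.79, 0.45, 1.14 and 0.55 in libraries 1 to 5 and 1.22, 1.62, 0.65, -0.30 and 0.61 in libraries 6 to 10. All metformin libraries but metformin 7 lay below every control.

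The difference of the SLC25A33 to SLC25A36 ratio was -1.86 on the log2 scale (exact permutation p = 0.000666, adjusted p = 0.00466). Within the middle set, where 5 controls stand against 3 metformin libraries, it was -1.99 (exact permutation p = 0.0179, adjusted p = 0.125). That unadjusted p is the smallest the 56 splits of those 8 libraries can give. The ratio was near 0.54 in metformin 1, 3 and 4, 0.67 in metformin 2 and 5, and 0.76 in metformin 6 to 10, and values of the 3 sets overlapped.

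**Figure D2:**
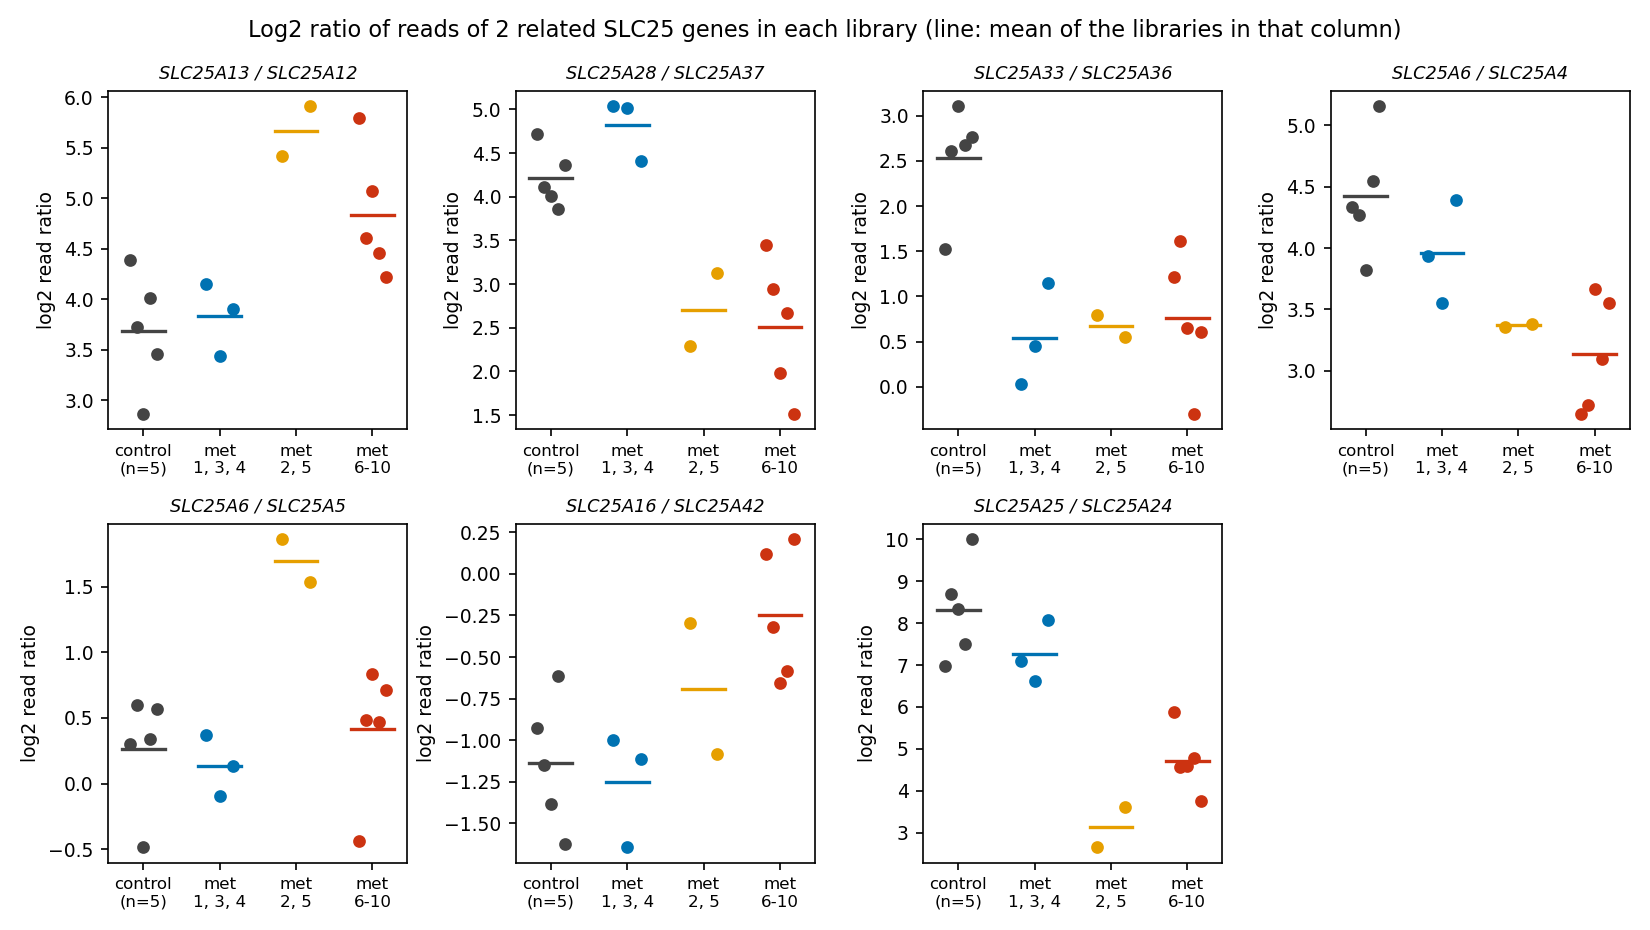
Log2 ratio of the reads of related SLC25 genes in each library, by diet and library set, with a line at the mean of each column. For SLC25A33 over SLC25A36 the means of the 3 metformin columns lie together below every control, while metformin 7 lies above control 1. For SLC25A28 over SLC25A37 metformin 1, 3 and 4 lie above the mean of the controls and the other metformin libraries below all controls.

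ADP/ATP, phosphate and ATP-Mg carriers gave 2 genes that rose and 1 that fell among 7 tested, 42.9% against 18.2% of all genes called. SLC25A25, a calcium-sensing ATP-Mg/phosphate carrier, had 81.4, 229, 196, 65.1 and 216 CPM in controls 1 to 5. With metformin it ranged from 33.9 to 92.3 CPM with a median of 53.8, and 7 of 10 libraries lay below every control. Controls 1 and 4 were the lowest controls for this gene, as they were for SLC25A33. SLC25A25 fell from 157 ± 78.0 CPM (SD, n = 5) to 55.1 ± 17.9 CPM (SD, n = 10), and the log2 fold change was -1.52 ± 0.29 (adjusted p = 0.0182 by edgeR).

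The 3 metformin sets had close means for SLC25A25, at 51.3, 50.8 and 59.1 CPM in metformin 1, 3 and 4, metformin 2 and 5, and metformin 6 to 10. Its set-adjusted value was -1.62 ± 0.42 (adjusted p = 0.157 by edgeR). With 1 library left out, it did not pass in 14 of 15 such fits (adjusted p up to 0.330). The exception was the fit without control 1 (-1.79, adjusted p = 0.0414). The call over all libraries was lost without control 2 (-1.35, adjusted p = 0.0610) and without control 5 (-1.38, adjusted p = 0.0632). In metformin 1, 3 and 4, SLC25A25 and SLC25A33 lay below all controls in every library. These were 2 of the 37 members (5.41%), against 3.56% of all genes, and 0 members lay above in all 3, against 2.99%.

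SLC25A24, another calcium-sensing ATP-Mg/phosphate carrier, was near the limit of detection in controls, with 4 to 16 reads per library. Its controls had 0.622, 0.532, 0.582, 0.336 and 0.188 CPM. Metformin 1, 3 and 4 had 0.400, 0.410 and 0.169 CPM, metformin 2 and 5 had 5.63 and 5.36 CPM, and metformin 6 to 10 had 0.679 to 6.78 CPM. SLC25A24 rose over all libraries (log2 fold change 2.50 ± 0.83, adjusted p = 0.0478 by edgeR). The set-adjusted value had the opposite sign, at -0.51 (adjusted p = 0.846). The call held without metformin 1, 3, 4 or 6 and was lost without any 1 of the other 11 libraries (adjusted p up to 0.105).

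SLC25A4, SLC25A5 and SLC25A6 encode ADP/ATP carriers, which export ATP from the matrix. SLC25A4 had 11.2, 12.5, 11.7, 15.3 and 8.46 CPM in controls and 13.9, 10.7 and 12.2 CPM in metformin 1, 3 and 4. It was 50.4 and 46.5 CPM in metformin 2 and 5 and 24.8 to 48.1 CPM in metformin 6 to 10, all above every control. SLC25A4 rose, and the log2 fold change was 1.39 ± 0.37 (adjusted p = 0.0289 by edgeR), and its set-adjusted value was 0.05 (adjusted p = 0.963). The call was lost when any 1 of the 5 controls was left out (adjusted p = 0.0584 to 0.0769).

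Controls 1 to 5 had 226, 241, 166, 357 and 303 CPM of SLC25A6. SLC25A6 averaged 259 ± 73.5 CPM in controls against 314 ± 124 CPM in metformin libraries, where metformin 2 and 5 were highest at 518 and 485 CPM, the median was 294 CPM and the lowest value 125 CPM. Its log2 fold change was 0.28 (adjusted p = 0.482 by edgeR) and -0.38 set-adjusted. For SLC25A5, controls had 183, 160, 232, 283 and 204 CPM, and metformin libraries 134 to 304 CPM with a median of 196, so the groups overlapped. SLC25A5 had 212 ± 47.5 and 200 ± 51.8 CPM (log2 fold change -0.09, adjusted p = 0.762). The read ratio of SLC25A6 to SLC25A4 was lower with metformin, by -0.99 on the log2 scale (exact permutation p = 0.00433, adjusted p = 0.0101). It lay below every control in 8 of 10 metformin libraries, and within the middle set the difference was -0.46 (exact permutation p = 0.25, adjusted p = 0.438). The ratio of SLC25A6 to SLC25A5 differed by 0.32 (exact permutation p = 0.372, adjusted p = 0.372) and by -0.13 within the middle set. Reads that fit several ADP/ATP carrier copies may be lost from or split between these genes.

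SLC25A3, the phosphate carrier, had 231 ± 52.6 CPM in controls and 202 ± 25.2 CPM with metformin, giving a log2 fold change of -0.20 (adjusted p = 0.364 by edgeR). SLC25A43, whose substrate is not well defined, had 5.95 ± 1.11 and 5.57 ± 1.37 CPM (-0.10, adjusted p = 0.789). The third pair ratio that differed was SLC25A25 to SLC25A24, by -3.14 on the log2 scale (exact permutation p = 0.00433, adjusted p = 0.0101), with -1.04 within the middle set (adjusted p = 0.438).

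**Figure D3:**
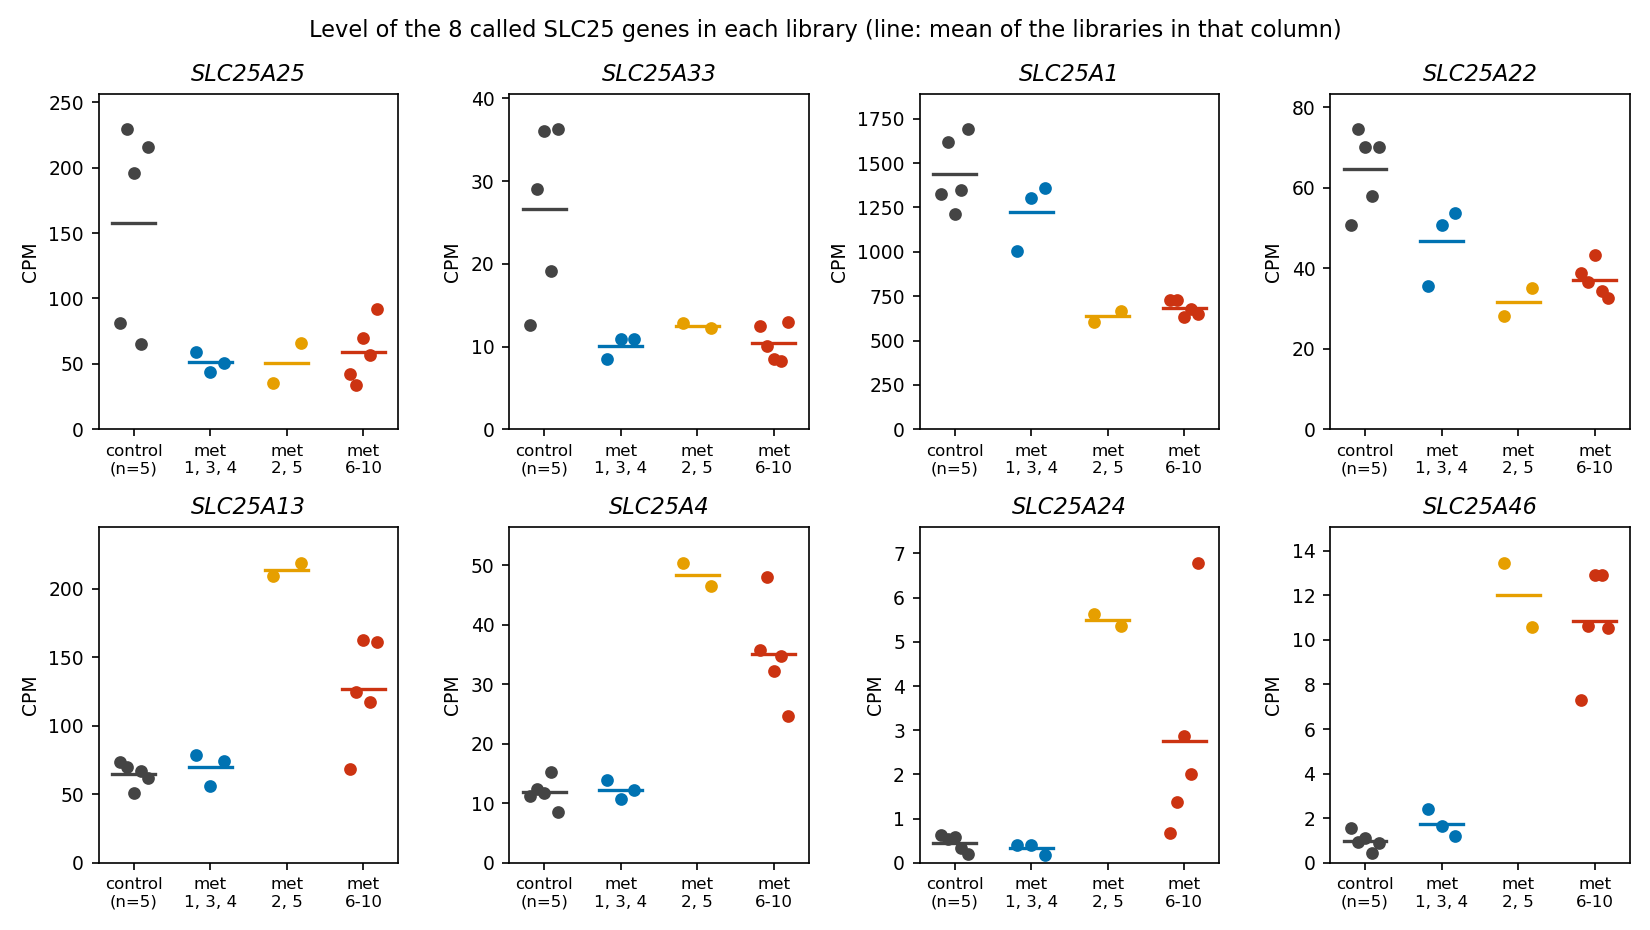
CPM of the 8 SLC25 genes that passed over all libraries, for each of the 15 libraries by diet and library set, with a line at the mean of each column. SLC25A25 and SLC25A33 are low in all 3 metformin columns, while SLC25A13, SLC25A4 and SLC25A24 in metformin 1, 3 and 4 overlap the controls.

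Among 7 carriers of di- and tricarboxylates, aspartate and glutamate, 1 rose and 2 fell, 42.9% against 18.2% of all genes called. SLC25A1, the citrate carrier, had 1324, 1620, 1214, 1349 and 1690 CPM in controls 1 to 5. Metformin 1, 3 and 4 had 1004, 1303 and 1362 CPM, metformin 2 and 5 had 605 and 668 CPM, and metformin 6 to 10 had 631 to 728 CPM. It lay below every control in 8 of 10 metformin libraries. SLC25A1 fell from 1439 ± 205 CPM (SD, n = 5) to 835 ± 285 CPM (SD, n = 10), giving a log2 fold change of -0.79 ± 0.23 (adjusted p = 0.0347 by edgeR). Set-adjusted it was -0.24 (adjusted p = 0.703), and -0.11 without metformin 1. The call over all libraries was lost without any 1 of 12 libraries, all but metformin 1, 3 and 4 (adjusted p up to 0.0853).

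SLC25A1 took a large share of the family's reads, which is a share of reads and not of molecules. It made up 39.6% to 45.6% of SLC25 reads in controls and 39.5% to 45.8% in metformin 1, 3 and 4. Metformin 2 and 5 had shares of 24.5% and 25.2%, and metformin 6 to 10 lay between 24.8% and 30.7%. The widest Wilson 95% interval extended 0.626 percentage points from its share, for counting error only. All SLC25 genes together took 0.261% to 0.367% of gene reads in controls and 0.217% to 0.306% with metformin. Without SLC25A1 these ranges were 0.157% to 0.200% and 0.118% to 0.223%, and the range of the controls lay within that of metformin.

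SLC25A22, a mitochondrial glutamate carrier, had 50.7, 74.5, 70.1, 57.9 and 70.1 CPM in controls. With metformin it ranged from 28.2 to 53.6 CPM with a median of 36.1, and 8 of 10 libraries lay below every control. It fell, and the log2 fold change was -0.73 ± 0.16 (adjusted p = 0.0225 by edgeR). The set-adjusted value was -0.47 (unadjusted p = 0.0200, adjusted p = 0.321), and it was -0.31 without metformin 1. Over all libraries the call was lost without control 2, 4 or 5, with adjusted p = 0.0549 to 0.0713.

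SLC25A13 and SLC25A12 encode the aspartate/glutamate carriers citrin and aralar. SLC25A13 had 73.5, 69.9, 50.7, 66.9 and 62.1 CPM in controls and 78.6, 55.9 and 74.5 CPM in metformin 1, 3 and 4. Metformin 2 and 5 had 209 and 219 CPM, and metformin 6 to 10 had 68.4 to 162 CPM. SLC25A13 rose, and the log2 fold change was 0.98 ± 0.32 (adjusted p = 0.0451 by edgeR), and set-adjusted it was 0.11 (adjusted p = 0.916). As for SLC25A24, the call held without metformin 1, 3, 4 or 6 and was lost without any 1 of the other 11 libraries (adjusted p up to 0.0961). SLC25A12 was at 3.496, 5.27, 6.94, 4.12 and 5.64 CPM in the controls and at 1.19 to 8.62 CPM with a median of 4.92 in the metformin libraries. SLC25A12 averaged 5.09 ± 1.35 CPM in controls against 4.80 ± 1.81 CPM in metformin libraries (log2 fold change -0.09, adjusted p = 0.853). The log2 read ratio of SLC25A13 to SLC25A12 differed by 1.01 (exact permutation p = 0.0326), which did not pass after adjustment (adjusted p = 0.0571), and by 0.14 within the middle set.

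The other members of this group did not pass between the diets. SLC25A10, the dicarboxylate carrier, was at 81.0, 85.3, 83.1, 107 and 67.8 CPM in the controls. Its metformin values ran from 32.6 CPM in metformin 2 to 102 CPM in metformin 3, with a median of 57.8, and the log2 difference was -0.46 (adjusted p = 0.178 by edgeR). SLC25A11, the oxoglutarate/malate carrier, had 56.9 ± 16.8 CPM in controls, 40.0 to 67.1 CPM in metformin 1 to 5 and 65.9 to 113 CPM in metformin 6 to 10. The log2 fold change of SLC25A11 was 0.38 (adjusted p = 0.253). SLC25A21, which carries oxoadipate, had 12.6 ± 2.94 and 11.6 ± 4.03 CPM (-0.12, adjusted p = 0.737).

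None of the 7 tested carriers of amino acids, carnitine and related substrates passed with edgeR, against 18.2% of all genes. At an unadjusted p under 0.05 there were 0, against 5658 of all 14432 genes. SLC25A20 imports acylcarnitines for fatty acid oxidation. It had 130, 122, 111, 145 and 158 CPM in controls, 91.0, 91.3 and 111 CPM in metformin 1, 3 and 4, 179 and 210 CPM in metformin 2 and 5, and 122 to 152 CPM in metformin 6 to 10. The means of the diets, 133 and 136 CPM, were close (log2 fold change 0.03, adjusted p = 0.915), and the set-adjusted value was -0.44 (unadjusted p = 0.0168, adjusted p = 0.303). Metformin 1, 3 and 4 were thus the lowest metformin libraries for SLC25A20 and metformin 2 and 5 the highest.

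SLC25A29, which carries basic amino acids, varied widely among controls, from 51.0 to 197 CPM, and gave a log2 fold change of -0.28 (adjusted p = 0.460 by edgeR). SLC25A15, the ornithine carrier, had 3.20 to 10.6 CPM in controls and 3.00 to 10.4 CPM with metformin (-0.28, adjusted p = 0.531). SLC25A38, linked to glycine import for haem synthesis, had 6.88 ± 1.45 and 7.85 ± 1.41 CPM (0.19, adjusted p = 0.477). SLC25A44, which carries branched-chain amino acids, had 10.7 to 17.1 CPM in metformin 1 to 5 and 19.8 to 39.7 CPM in metformin 6 to 10, against 10.9 to 20.4 CPM in controls (0.48, adjusted p = 0.233).

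SLC25A47, a carrier found mainly in liver in mammals, had 29.6 ± 8.64 CPM in controls and 26.6 ± 9.76 CPM with metformin, and the groups overlapped (-0.15, adjusted p = 0.681 by edgeR). SLC25A48, described as a choline carrier in mammals, had 0 to 37 reads per library, and its log2 fold change of 1.66 ± 1.09 (adjusted p = 0.260) rests on those few reads.

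Among 12 tested carriers of nucleotides, cofactors, iron and glutathione, SLC25A33 fell and 0 rose, 8.33% against 18.2% of all genes called. Neither iron carrier (mitoferrin) passed over all libraries. SLC25A28 had 161, 209, 192, 161 and 176 CPM in controls and 165, 206 and 164 CPM in metformin 1, 3 and 4. It had 38.5 and 44.0 CPM in metformin 2 and 5 and 45.7 to 69.01 CPM in metformin 6 to 10, all below every control. Over all libraries the log2 fold change was -1.01 ± 0.39 (adjusted p = 0.0742 by edgeR), and set-adjusted -0.01 ± 0.17. It passed over all libraries when metformin 1, 3 or 4 was left out (-1.15 to -1.24, adjusted p = 0.0176 to 0.0418).

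SLC25A37 was at 6.10, 12.04, 11.9, 11.0 and 8.51 CPM in the controls and at 5.00 to 17.2 CPM with a median of 7.05 in metformin libraries, and the groups overlapped (log2 fold change -0.25, adjusted p = 0.536 by edgeR). The log2 ratio of SLC25A28 to SLC25A37 reads averaged 4.22 in controls, 4.82 in metformin 1, 3 and 4, 2.704 in metformin 2 and 5 and 2.51 in metformin 6 to 10. The difference between the diets was -0.97 (exact permutation p = 0.112, adjusted p = 0.131) and 0.60 within the middle set (exact permutation p = 0.0536, adjusted p = 0.188). Erythroid cells use mitoferrin for haem synthesis, and avian red cells keep their nucleus and RNA. The summed level of 8 erythroid marker genes was 299 to 1373 CPM in controls, 314 to 678 CPM in metformin 1, 3 and 4, 173 and 175 CPM in metformin 2 and 5 and 168 to 617 CPM in metformin 6 to 10. None of these 8 was at 0 in all libraries, and their part in the SLC25A28 and SLC25A37 values was not tested. In whole tissue, fewer cells of a type and less RNA per cell cannot be told apart.

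Of the cofactor carriers, SLC25A16, linked to coenzyme A, had 9.01, 12.6, 9.58, 11.9 and 10.2 CPM in controls, 6.49 to 11.7 CPM in metformin 1, 3 and 4, and 17.2 to 26.3 CPM in the other metformin libraries. Its log2 fold change was 0.65 (adjusted p = 0.101 by edgeR) and -0.27 set-adjusted. SLC25A42, the coenzyme A carrier, was at 17.2, 28.1, 24.99, 18.2 and 31.3 CPM in the controls and at 16.1 to 36.4 CPM with a median of 24.7 in metformin libraries. Its means were 23.9 ± 6.17 and 24.9 ± 7.01 CPM (0.06, adjusted p = 0.862). The log2 ratio of SLC25A16 to SLC25A42 reads differed by 0.50 between the diets (exact permutation p = 0.109, adjusted p = 0.131) and by -0.11 within the middle set. SLC25A32, the folate and FAD carrier, had 0.940 to 2.19 CPM in controls and 0.400 to 8.30 CPM with metformin (1.55 ± 0.62, adjusted p = 0.0805).

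SLC25A39, a glutathione carrier in mammals, was at 51.9, 41.99, 43.5, 69.3 and 44.1 CPM in the controls and at 23.5 to 76.1 CPM with a median of 38.6 in metformin libraries. It had 50.2 ± 11.4 CPM in controls, a mean of 66.0 CPM in metformin 1, 3 and 4, and means of 32.4 and 35.8 CPM in metformin 2 and 5 and in metformin 6 to 10. The estimate was -0.18 on the log2 scale over all libraries (adjusted p = 0.602 by edgeR) and 0.40 set-adjusted (adjusted p = 0.502). SLC25A51, the NAD carrier, had 9.76 to 13.8 CPM in controls and 3.18 to 15.4 CPM with metformin (-0.39, adjusted p = 0.311). SLC25A26, which imports S-adenosylmethionine, had -0.05 (adjusted p = 0.916), and the peroxisomal carrier SLC25A17 had -0.19 (adjusted p = 0.549).

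Of the 4 tested members that are relatives of uncoupling proteins or stand apart, SLC25A46 rose and 0 fell, 25.0% against 18.2% of all genes called. SLC25A46 lies in the outer membrane and takes part in mitochondrial fission and lipid transfer. It had 1.55, 0.919, 1.1195, 0.420 and 0.893 CPM in controls, from only 10 to 40 reads per library. In metformin 1, 3 and 4 it had 2.40, 1.64 and 1.18 CPM. Metformin 2 and 5 had 13.5 and 10.6 CPM and metformin 6 to 10 had 7.30 to 12.9 CPM, so 9 of 10 metformin libraries lay above every control. The mean rose from 0.981 ± 0.410 CPM (SD, n = 5) to 8.35 ± 4.89 CPM (SD, n = 10), and the log2 fold change was 3.08 ± 0.62 (adjusted p = 0.0196 by edgeR).

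Set-adjusted, SLC25A46 had 0.81 ± 0.36 (unadjusted p = 0.0400, adjusted p = 0.403 by edgeR), and 0.51 without metformin 1. Its call over all libraries was lost without control 2, 4 or 5 (adjusted p = 0.0549 to 0.0632). SLC25A14, an uncoupling protein relative, had 23.7, 29.8, 24.3, 23.9 and 25.1 CPM in controls, 21.4 to 26.1 CPM in metformin 1, 3 and 4, and 7.75 to 10.5 CPM in the other metformin libraries. Its log2 fold change was -0.89 ± 0.31 (adjusted p = 0.0535) and -0.06 set-adjusted, and DESeq2 gave -0.86 (adjusted p = 0.0354). SLC25A14 also passed without metformin 1, 3 or 4 (adjusted p = 0.0199 to 0.0241 by edgeR). SLC25A30, another such relative, had -0.55 (adjusted p = 0.158), and SLC25A34, whose substrate is not well defined, had -0.55 (adjusted p = 0.291). For SLC25A34 the controls were at 17.3, 33.4, 33.5, 23.5 and 17.6 CPM. Metformin 2 and 5 were lowest, at 3.28 and 7.03 CPM, and the other metformin libraries lay between 10.95 and 32.6 CPM.

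**Figure D4:**
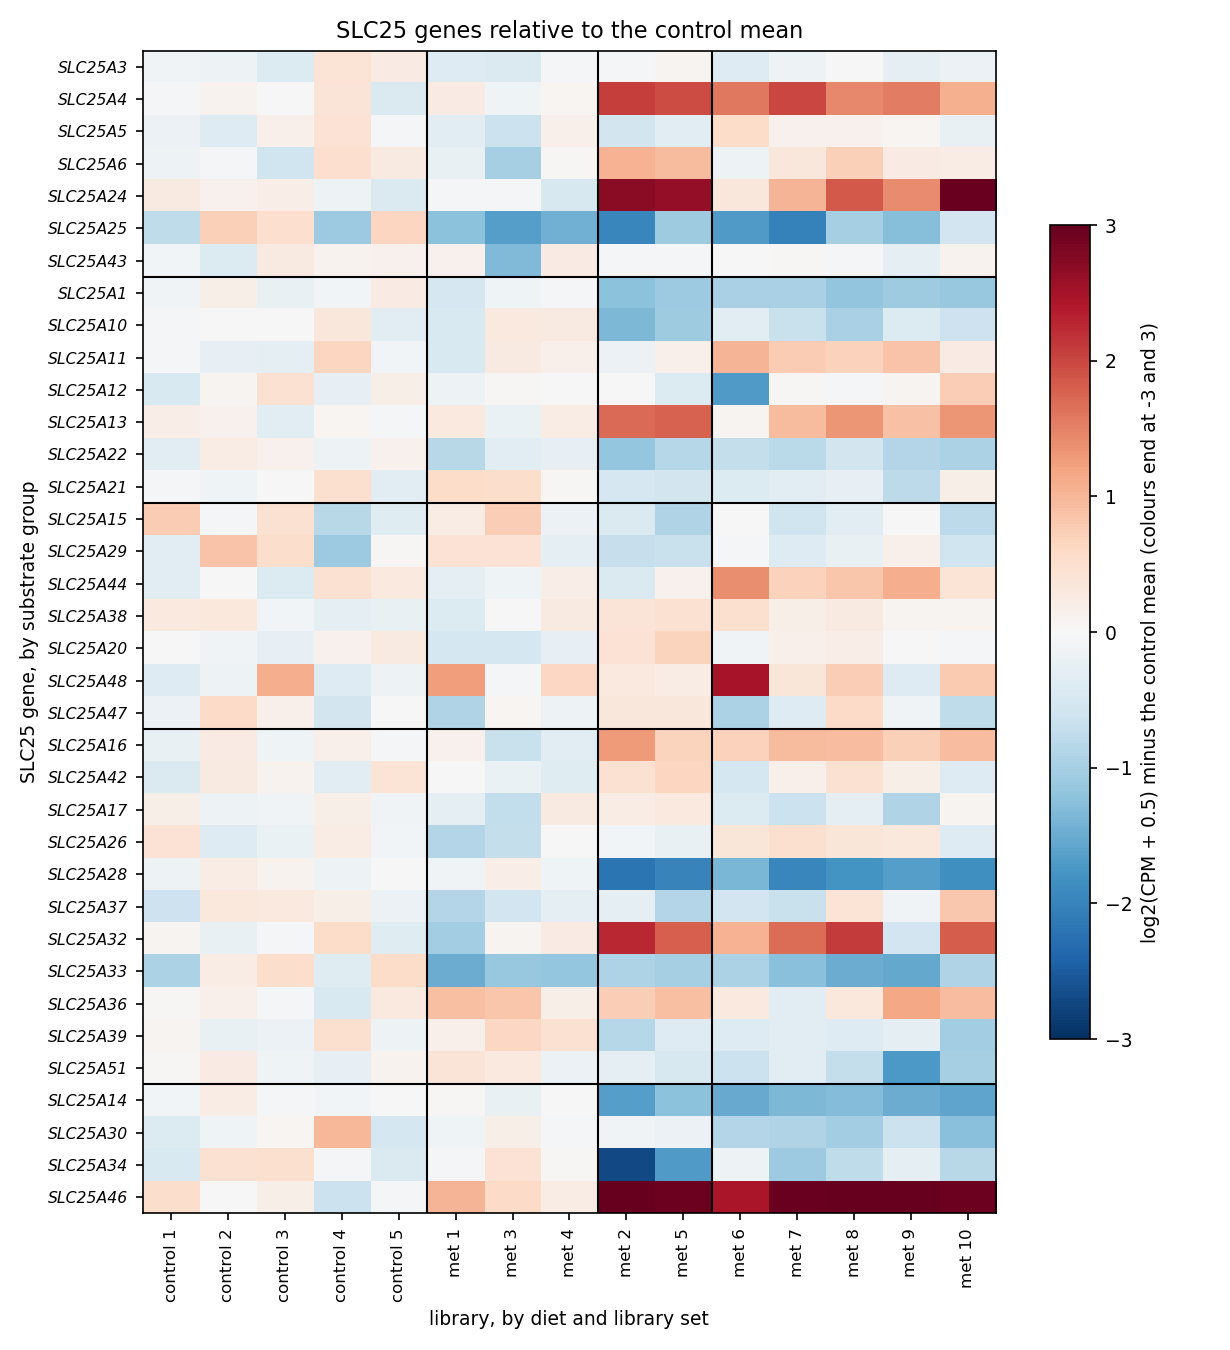
Log2(CPM + 0.5) minus the control mean for 36 SLC25 genes (rows, in 5 substrate groups) in 15 libraries (columns, controls first and then metformin by set). SLC25A28 and SLC25A14 are low and SLC25A46 and SLC25A4 high in metformin 2, 5 and 6 to 10, and SLC25A33 and SLC25A25 are low in all metformin columns.

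Metformin libraries also differed among themselves. In a joint test of the set term, which compares metformin 2 and 5 and metformin 6 to 10 with metformin 1, 3 and 4, 19 of 37 members passed (51.4%) by edgeR. Over all genes 52.4% passed, so the members were near the background here too. SLC25A28 had the smallest p, with differences of -2.11 and -1.71 on the log2 scale, in that order (adjusted p = 3.93e-07). SLC25A14 had -1.42 and -1.43 (adjusted p = 3.01e-06), SLC25A4 had 1.98 and 1.52 (adjusted p = 2.77e-05) and SLC25A46 had 2.80 and 2.65 (adjusted p = 7.04e-05).

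Some members differed mainly in metformin 2 and 5 or mainly in metformin 6 to 10. SLC25A34 was -2.39 in metformin 2 and 5 and -0.75 in metformin 6 to 10 (adjusted p = 0.000445 by edgeR for the term). SLC25A44 was -0.08 and 1.00 (adjusted p = 0.00327), SLC25A11 was -0.04 and 0.72 (adjusted p = 0.0207), and SLC25A30 was -0.14 and -0.96 (adjusted p = 0.0161). SLC25A33, SLC25A25 and SLC25A36 did not pass, with adjusted p = 0.709, 0.864 and 0.807. What the sets stand for was not tested.

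Genes that work with the carriers were counted in the same way. Carriers reach the inner membrane through the TOM complex and the TIM22 route, and of 13 tested genes of this import pathway 5 fell (38.5%, against 5.73% of all genes) and 0 rose (against 12.5%) by edgeR. The median log2 fold change was -0.80, against 0.03 over all genes, and -0.25 set-adjusted, against -0.03. Set-adjusted, 0 passed, against 0.0346% of all genes. There 4 of the 13 had an unadjusted p under 0.05, against 11.6% of all genes. TIMM22, the channel that inserts carriers, fell from 21.7 ± 3.66 to 12.5 ± 3.31 CPM (log2 fold change -0.79, adjusted p = 0.0251; -0.35 set-adjusted). TOMM5, TOMM6 and TOMM7, small subunits of the outer membrane pore, had -0.95, -1.03 and -1.36 (adjusted p = 0.0218, 0.0225 and 0.0315), and -0.53, -0.58 and -0.41 set-adjusted. TOMM20, an import receptor, had -0.58 (adjusted p = 0.0348; -0.57 set-adjusted). Over the 13 genes, 11 values were negative and 2 positive. The positive ones were TOMM70 at 0.45 (adjusted p = 0.179 by edgeR, -0.07 set-adjusted) and AGK at 0.32 (adjusted p = 0.264, 0.03 set-adjusted).

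Of 17 other metabolite and ion carriers of mitochondria 1 rose and 3 fell, 23.5% against 18.2% of all genes called. MPC1, a subunit of the pyruvate carrier, had 77.9, 200, 252, 248 and 280 CPM in controls and 65.0 to 139 CPM with metformin (log2 fold change -1.16, adjusted p = 0.0238 by edgeR; -1.32 set-adjusted). Control 1 was again low. The sideroflexins SFXN3 and SFXN4 had -0.75 and -0.42 (adjusted p = 0.0300 and 0.0468), with -0.50 and -0.19 set-adjusted, and MICU2, a regulator of the calcium uniporter, had 0.87 (adjusted p = 0.0375; 0.01 set-adjusted). Of 3 carrier-type proteins under other symbols 0 passed with edgeR, against 18.2% of all genes. At an unadjusted p under 0.05 there was 1, against 5658 of all 14432 genes. MTCH2 had -0.74 (adjusted p = 0.0545).

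Of 17 enzymes that supply or use carried metabolites 5 rose (29.4%, against 12.5% of all genes) and 1 fell (5.88%, against 5.73%), and the median log2 fold change was 0.63 (0.01 set-adjusted). GOT2, the matrix enzyme of the malate-aspartate shuttle, had 29.99 to 80.4 CPM in controls, 46.7 to 58.2 CPM in metformin 1, 3 and 4 and 195 to 365 CPM in the other metformin libraries (1.86, adjusted p = 0.0301 by edgeR; -0.16 set-adjusted). Its cytosolic partner GOT1 had 118 and 117 CPM on average in controls and with metformin (-0.00, adjusted p = 0.986). GLUD1, PCK2 and GPD1L had 2.92, 2.46 and 3.65 (adjusted p = 0.0274, 0.0200 and 0.0296), with 0.16, 0.70 and 0.79 set-adjusted. GPD1L was near the limit of detection, with 0.117 to 0.336 CPM in controls and 0 reads in its lowest library. It did not pass the filter in the middle set alone. CS, citrate synthase, and CPT1A, which makes acylcarnitines, are also in the list. CS had 0.86 (adjusted p = 0.0409 by edgeR) and 1.23 set-adjusted (unadjusted p = 0.000721, adjusted p = 0.121). CPT1A, the enzyme of this list that fell, had -0.76 (adjusted p = 0.0460) and -1.23 set-adjusted (unadjusted p = 0.000595, adjusted p = 0.113). Of 15 regulators of mitochondrial biogenesis and shape 4 rose (26.7%, against 12.5% of all genes) and 0 fell (against 5.73%). GABPA, OPA1, MFN2 and ESRRG had 0.88, 0.98, 0.95 and 2.33 (adjusted p = 0.0283 to 0.0483), with 0.21, 0.36, 0.12 and -0.26 set-adjusted. ESRRG had as few as 1 read in a library. Over the 15 genes, 9 values were positive and 6 negative, with a median of 0.18 (0.12 set-adjusted, where 0 passed, against 0.0346% of all genes). PPARGC1A, PPARGC1B, NRF1 and TFAM, among the 6, had -0.11, -0.10, -0.16 and -0.16 (adjusted p = 0.461 to 0.868 by edgeR).

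Of 51 tested markers of cell types found in liver or its surroundings, 1 rose (1.96%, against 12.5% of all genes). Another 7 fell (13.7%, against 5.73%), and 15.7% were called in either direction, against 18.2% of all genes. The 8 hepatocyte markers summed to 55614 to 82606 CPM in controls, 31770 to 61204 CPM in metformin 1, 3 and 4 and 71040 to 119557 CPM in the other metformin libraries. Of these 8, 1 fell and 0 rose, and all were detected. The 4 adipocyte markers summed to 127 to 215 CPM in controls and 35.0 to 142 CPM with metformin. PLIN1 and CIDEC, which made up most of that sum, fell (log2 fold change -1.43 and -1.45, adjusted p = 0.0259 and 0.0221 by edgeR). The other 2, ADIPOQ and LPL, had positive values and were not called, with at most 4.13 and 11.7 CPM in any library. The 10 leukocyte and Kupffer cell markers summed to 870 to 1599 CPM and 597 to 1026 CPM, where 2 fell. Endothelial, bile duct and stellate markers gave 1 call each, downward in the first pair of lists (7 and 5 tested) and upward in the stellate list (6 tested). The stellate call was DCN (log2 fold change 1.87, adjusted p = 0.0316 by edgeR), whose set-adjusted value had the opposite sign. Over the 6 stellate genes 2 values were positive and 4 negative, with a median of -0.18 (-0.16 set-adjusted). Of 6 tested erythroid and 5 tested muscle markers 0 passed with edgeR. At an unadjusted p under 0.05 there were 3 and 1, against 5658 of all 14432 genes. MYL1 of the muscle list was at 0 in every library. The part of these cell types in the SLC25 values was not tested.

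Of the 36 members found in the RefSeq gene table of another assembly, GRCg7b, 21 had a span that overlaps another annotated gene there. Among the called members these were SLC25A1, SLC25A22, SLC25A25 and SLC25A46. The sources used here do not state the strand setting of the counting, so reads of an overlapping partner could be part of their counts.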

How the data were processed

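The values are raw counts of reads in each gene, as deposited by the authors. Per the submitters' processing notes the tools include HTSeq 0.12.3 and STAR 2.7.11b, with FastQC 0.12.0 and Trim Galore 0.6.4, and the builds GRCg6a and galGal6. The labels' protocols name a stranded mRNA kit and 200 ng of total RNA. Closing rows of reads outside genes stayed out of library sizes and tests, and reads in no gene made up 14.6% to 55.1%.

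Counts were fitted with edgeR 4.0.16 in R 4.3.3 (quasi-likelihood test, TMM factors, default filter, Benjamini-Hochberg over 14432 genes), with DESeq2 1.42.0 as an alternative. SE is the log2 fold change over the root of the F statistic. Ratios of 2 genes used counts with 0.5 added. No library pair agreed within sampling noise (smallest chi-square per degree of freedom 90.6 over 2000 genes). The calculations were tested on simulated counts that held no difference between library sets, so that test does not cover calls where set and diet coincide.

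All tested SLC25 members enter the counts, and 1 of them, which did not pass, is not reported here by name or drawn in the plots. Values per library, or their range with metformin, are given for called members, for pair members and for the 12 members with the smallest p of the set term. Of each list of genes that work with the carriers, up to 4 called genes with the smallest p are named, or 1 where none was called. Marker lists are given as sums and counts, with only DCN, MYL1 and the adipocyte genes named. GOT1, TOMM20, TOMM70, AGK, CS, CPT1A, PPARGC1A, PPARGC1B, NRF1 and TFAM were chosen after their values were seen. A rule on level per coding length could not be applied without lengths, and sequences are not used here. Members, lists and sets were chosen with earlier results of these data known.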

Additional observations from a re-analysis of the deposited data

Results flagged for a closer look

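The lowest or highest library of each diet was compared with its neighbours for the 37 tested SLC25 genes, which made 74 groups of libraries. In 6 of them the gap to the nearest library, divided by the range, was above Dixon's 95% critical value (0.710 for 5 libraries, 0.466 for 10), and chance gives about 1 in 20. Control 4 was far above the other controls for SLC25A11 (86.5 CPM, the next at 53.1) and SLC25A30 (66.3 CPM, the next at 34.7). Control 2 was highest for SLC25A14 (29.8 CPM, the next at 25.1), and control 3 for SLC25A48 (0.896 CPM, the next at 0.0967). Metformin 3 was lowest for SLC25A43 (2.05 CPM, the next at 4.77), and metformin 6 was highest for SLC25A48 (3.14 CPM, the next at 1.07). None of these genes was called between the diets over all libraries by edgeR.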

How the results depend on the processing

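Under RLE factors, upper quartile factors and a filter that asks for 1 CPM in 5 libraries, 4 members were called higher and 4 lower, as over all libraries. These scalings moved the median log2 fold change of all genes by at most 0.04. DESeq2 called 6 and 5. With no filter 2 were called higher, as SLC25A13 and SLC25A24 lost their calls, and 4 lower. That was 16.2% of members, against 9.62% of all genes. With the set as covariate, with the middle set alone, and with the replicate number as a replicate block, 0 were called in either direction by edgeR, and 6 members had an unadjusted p under 0.05 in each. These 6 were 16.2% of members, against 10.2% to 11.8% of all genes. In the block fit metformin 6 to 10 share no replicate number with a control. Its metformin term therefore compares controls 1 to 5 with metformin 1 to 5. Deviations of same-numbered libraries correlated at -0.08 to 0.06, and 1 of 5 numbers correlated best with itself. The metformin deviations were taken from the mean of all metformin libraries, which differ by set. These correlations therefore cannot tell whether the replicate number pairs libraries. Leaving out each library in turn gave 0 to 6 called higher and 0 to 6 lower. The called share ran from 0% to 32.4% of members and from 0% to 36.8% of all genes. Without control 1 there were 1 and 3, without control 3 also 1 and 3, without control 4 there were 0 and 2, and without control 2 or control 5 there were 0 and 0. The shares of all genes called in these fits were 5.99%, 2.84%, 0.376%, 0.041% and 0%, in that order. Higher calls were 2 and lower calls 3 without metformin 2, 5, 8, 9 or 10, against 4 and 4 over all libraries. That was 13.5% of members, against 8.35% to 15.1% of all genes. The set term called 18 to 21 members when a library was left out and 19 or 20 otherwise.

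Of the 65 tested partner genes in the 5 lists, 10 were called higher and 9 lower, against 12.5% and 5.73% of all genes. DESeq2 called 16 higher and 13 lower, and 29.7% of all genes. With the set as covariate, the middle set alone or the replicate block, 0 were called in either direction by edgeR, against 0% to 0.0346% of all genes. Without 1 library there were 0 to 17 higher and 0 to 19 lower, while 0% to 36.8% of all genes were called.

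With the set as covariate 17 of 37 members and 22 of 65 partner genes had the opposite sign, and of these 1 member (SLC25A24) and 2 partner genes (GOT2 and ESRRG) had been called over all libraries. Turned signs were not counted over all tested genes, so these counts have no background beside them. Among called genes the sign was kept in 87.5% of members and 83.1% of all genes. The cause of the turned signs was not tested. With the set as covariate and with the middle set alone, respectively, the log2 fold change was -0.51 and -0.48 for SLC25A24, 0.10 and 0.12 for SLC25A34, -0.27 and -0.25 for SLC25A16, 0.059 and 0.078 for SLC25A10, -0.44 and -0.42 for SLC25A20, 0.40 and 0.42 for SLC25A39, -0.38 and -0.36 for SLC25A6, and -0.22 and -0.20 for SLC25A42. Set-adjusted signs also turned for SLC25A32 (-0.22), SLC25A21 (0.37), SLC25A15 (0.21), SLC25A51 (0.18), SLC25A44 (-0.086), SLC25A29 (0.081), SLC25A38 (-0.044), SLC25A11 (-0.018) and 1 other member. It was -0.16 and -0.14 for GOT2, -0.26 and -0.25 for ESRRG, and -0.037 and -0.013 for DCN. SLC25A28 had 0.010 in the middle set alone, and SLC25A20 had -0.042 with the replicate block. Pair ratios turned in the middle set alone for SLC25A28 to SLC25A37 (0.60), SLC25A6 to SLC25A5 (-0.13) and SLC25A16 to SLC25A42 (-0.11).

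Leaving out 1 library moved the log2 fold change across 0 for SLC25A12 (-0.20 to 0.055), SLC25A20 (-0.033 to 0.10), SLC25A42 (-0.047 to 0.17) and SLC25A5 (-0.18 to 0.031). It did so for the set-adjusted values of SLC25A4 (-0.049 to 0.16), ESRRG (-0.62 to 0.26), GABPA (-0.016 to 0.37), GLUD1 (-0.024 to 0.33), GPD1L (-1.36 to 1.45), MFN2 (-0.025 to 0.25), MICU2 (-0.24 to 0.14) and MTCH2 (-0.16 to 0.014). The 3 pair ratios that passed kept adjusted p = 0.00350 to 0.0420 by the exact permutation test without each library in turn. In the middle set alone these 3 did not pass (adjusted p = 0.125 to 0.438 by that test). Low counts limit SLC25A24, SLC25A32, SLC25A40, SLC25A48 and, in the controls, SLC25A46. Among the partner genes they limit GPD1L and ESRRG.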
